A study of Mus musculus with 6 samples.

Results

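Mitochondria make ATP by passing electrons along complexes I to IV of the inner membrane and by letting the protons pumped on the way flow back through ATP synthase. Complex I takes electrons from NADH and complex II from succinate, complex III hands them to cytochrome c, and complex IV gives them to oxygen. Most subunits are encoded in the nucleus, while a few central ones are encoded by mitochondrial DNA and made on mitochondrial ribosomes. The nuclear genes of these machines were followed here in a mouse B progenitor acute lymphoblastic leukemia in which Pax5, the factor that holds cells in the B lineage, had been restored.

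The genes were taken by a rule on their names that reads no measured value, although the rule was set with earlier results of these data known. They are the protein-coding mouse genes whose symbols begin with Nduf, Uqcr, Cox4i, Cox5, Cox6, Cox7, Cox8 or Atp5, together with Sdha, Sdhb, Sdhc and Sdhd. This gave 95 of the 26286 genes in the count table. Of these, 38 are listed as genes for subunits of complex I, 4 of complex II, 8 of complex III, 20 of complex IV and 17 of ATP synthase. The other 8 are Ndufaf genes, whose products help to build complex I and are described apart. Cytochrome c1 (Cyc1), cytochrome c and the Cox genes for assembly factors lie outside these names and are described with the related lists.

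RNA sequencing had been done on 3 libraries from mice given doxycycline (dox) food for 3 days and 3 libraries from untreated mice. In both groups leukemia cells were sorted from the marrow of Rag1 knockout mice that bore the leukemia, and all 6 libraries came from a single leukemia, the tri-transgenic leukemia A024. Cells of the GFPmid immunophenotype were taken after dox, which the labels describe as Pax5 restoration, and GFPhigh cells from untreated mice. The labels used here do not describe the transgenes, nor give the age or sex of the mice, and no dox-treated leukemia without Pax5 restoration was analysed here. Dox itself, the GFP gate and the return of Pax5 changed together and cannot be told apart. This matters for the genes below because tetracycline antibiotics are known, in general, to slow mitochondrial ribosomes. The replicates are mice carrying the same leukemia, and the p-values carry the spread among those mice, with no second leukemia to compare.

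Total counts lay between 14432213 and 15612435 after dox and between 14185203 and 15053258 in untreated mice. Levels are given as CPM, a gene's counts per 1000000 counts of its library, scaled by edgeR's TMM factors, or, where genes are set against each other, as CPM per kilobase of the deposited gene length (RPKM). Pax5 itself had 227, 281 and 231 CPM after dox, against 154, 93.5 and 105 CPM in untreated mice, a log2 fold change of 1.07 (SE 0.17, adjusted p = 0.000695) by the quasi-likelihood test of edgeR with Benjamini-Hochberg adjustment, which is the test behind every adjusted p given here. The 8 B lineage markers together made up between 8182 and 8982 CPM after dox and between 5991 and 6288 CPM in untreated mice, and 7 of them rose while Cd24a fell. Markers of other marrow cells were present at low levels and differed between the groups. The 12 neutrophil markers summed to 528, 114 and 251 CPM in dox replicates 1, 2 and 3, against 112, 88.9 and 105 CPM in untreated replicates, and 7 of the 7 tested rose. For the 12 macrophage and monocyte markers the sums were 114, 52.6 and 66.1 CPM after dox, against 29.9, 20.3 and 26.0 CPM in untreated mice, and 8 of the 9 tested rose. Erythroid sums overlapped between the groups, at 395 to 512 CPM after dox and 376 to 578 CPM in untreated mice. T cell sums stayed under 13 CPM in every library, and the T cell genes Cd3e and Cd8a were at 0 throughout. A list of 10 genes that respond to cell handling, such as immediate early genes, summed to 199 to 287 CPM after dox and 132 to 156 CPM in untreated mice, with 4 rises and 2 falls among the 9 tested. The part of other cells or of handling in the results below was not tested.

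Transcripts of the respiratory chain and ATP synthase fell in part after dox, with falls called in each of the 5 complexes. Of the 95 genes, 86 passed the low-count filter, and of these 48 fell, 1 rose (Cox7a2l) and 37 did not pass the test at an adjusted p under 0.05. Over all 12275 genes tested 53.6% passed, 26.6% as falls and 27% as rises. Without the Ndufaf genes, 43 of 78 tested genes fell and 1 rose, with a median log2 fold change of -0.27. The median log2 fold change of the 86 genes was -0.28, a fall of 17.4%, while that of all genes tested was 0.01 with quartiles at -0.32 and 0.37. The point estimates were negative for 75 of the 86 genes and positive for 11. In 51 of the 86 genes every dox library lay under every untreated library, as did 31% of all genes tested, and in 1 gene, Cox7a2l, every dox library lay above, as did 31.2% of all genes tested. Without dox replicate 1, the library highest in neutrophil and macrophage markers, 38 of the 86 genes fell and Cox7a2l rose. Of all genes in that fit 23.5% fell and 22.8% rose.

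**Figure D1:**
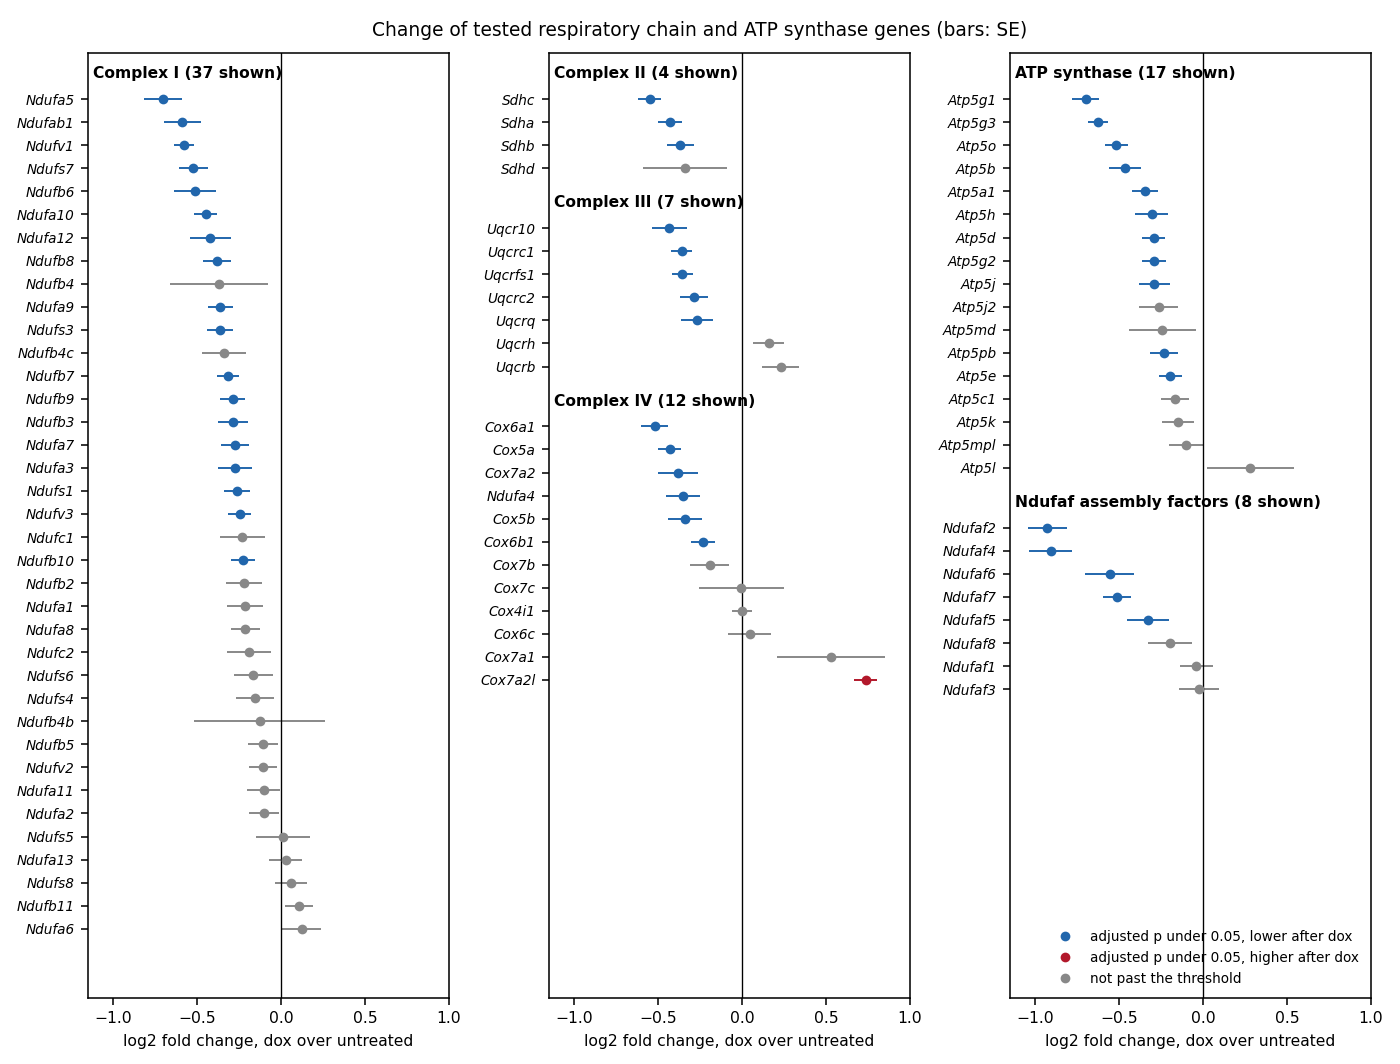
Log2 fold change after dox over untreated for 85 of the tested respiratory chain and ATP synthase genes, ordered by complex, with bars of 1 SE and calls marked by colour. Estimates lie left of 0 for 74 of the 85 genes drawn, and Cox7a2l at 0.74 is the 1 called gene to the right.

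The falls were modest. Against a minimum fold of 1.2, tested in place of 0, 18 genes fell and Cox7a2l rose, where 16.9% of all genes fell and 17.1% rose by that rule. The 18 were Ndufv1, Ndufs7, Ndufa5, Ndufa10, Ndufab1, Ndufb6, Sdha, Sdhc, Cox5a, Cox6a1, Atp5b, Atp5g1, Atp5g3, Atp5o, Ndufaf2, Ndufaf4, Ndufaf6 and Ndufaf7. Against a minimum fold of 1.5, 2 genes remained lower, Ndufaf2 and Ndufaf4, and none remained higher. By that rule 5.46% of all genes fell and 7.56% rose.

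The genes, Ndufaf genes included, were also split by their mean level in untreated mice. Of the 25 genes at 100 CPM or more, 22 fell, with a median log2 fold change of -0.35 and a median SE of 0.07, and of all genes at that level 39.7% fell. Between 30 and 100 CPM, 18 of 37 fell and 1 rose, and of all genes at that level 32.9% fell and 25.9% rose. Of the 24 genes under 30 CPM, 8 fell, with a median of -0.23 and a median SE of 0.12, and of all genes at that level 16.1% fell. A gene without a call below is not shown to be unchanged.

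Added up, the 95 genes took 7345, 6774 and 7844 CPM in dox replicates 1, 2 and 3, against 9207, 8874 and 9015 CPM in untreated replicates. All 3 dox sums were lower than all 3 untreated sums, and their means differed by -18.9%. The difference was -26.0% for complex II, -23.1% for ATP synthase, -16.1% for complex III, -14.4% for complex I, -10.2% for complex IV and -26.9% for the Ndufaf genes, with no overlap between groups in any of the 6. Dox replicate 2 was the lowest of the 3 dox libraries in each of these sums. In these sorted populations, fewer cells of a type and less RNA per cell cannot be told apart.

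**Figure D2:**
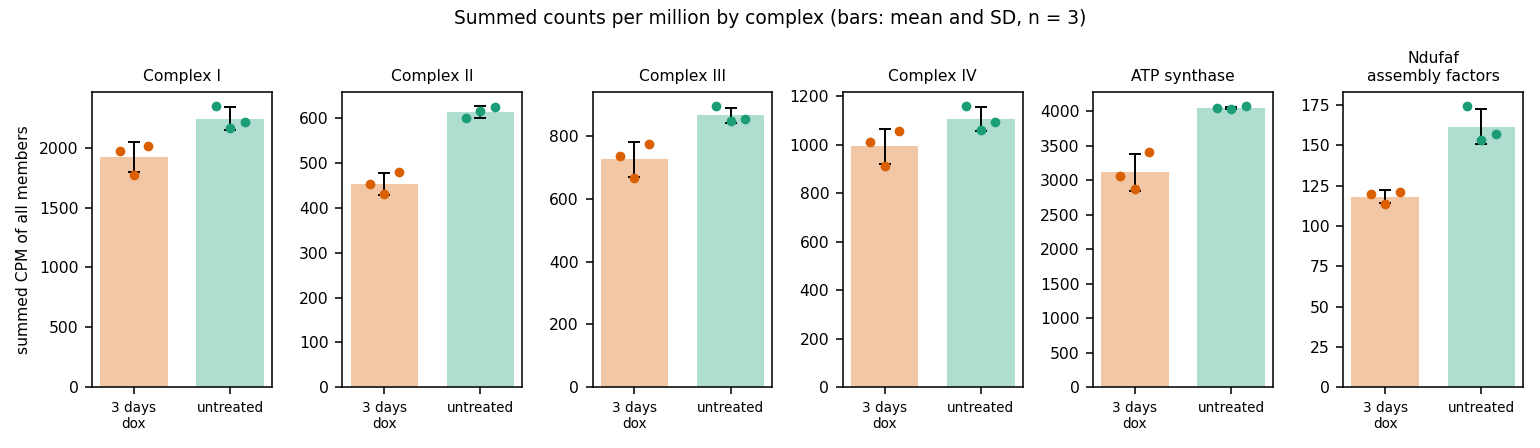
Summed CPM of the genes of each complex, 1 point per library, with dox libraries left of untreated libraries and bars at each group's mean and SD (n = 3). For each complex and for the Ndufaf genes the 3 dox points lie under the 3 untreated points.

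Most of these genes are short, with a median deposited length of 680.5 bases among those tested, against 2619 bases over all genes tested, and short genes as a whole ran slightly lower after dox. Under 600 bases, 15 of 36 respiratory genes fell, with a median log2 fold change of -0.23, and 160 of all 639 genes of that length fell, with a median of -0.09. Between 600 and 1000 bases, 15 of 21 respiratory genes and 28.4% of all genes fell, and the medians were -0.29 for respiratory genes and -0.09 for all genes. Between 1000 and 2000 bases, 12 of 22 respiratory genes and 31.2% of all genes fell, with a respiratory median of -0.27 and an overall median of -0.05. At 2000 bases or more, 6 of 7 respiratory genes and 24.9% of all genes fell, and the medians were -0.35 for respiratory genes and 0.06 for all genes. The respiratory median was thus under that of all genes in each length class. These classes include Ndufaf genes, and Ndufaf4, Ndufaf5 and Ndufaf7 are among those of 2000 bases or more that fell.

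With the trend by length removed in the fit, 35 of the 48 genes still fell and 4 rose, and the median was -0.17. Of all genes tested in that fit 26.6% fell and 27.3% rose. The 13 that no longer passed were Ndufa3, Ndufa7, Ndufb3, Ndufb10, Uqcrq, Cox5b, Cox6b1, Atp5d, Atp5e, Atp5h, Atp5j, Atp5pb and Ndufaf5, and the 3 further rises were Ndufb11, Uqcrb and Uqcrh. With the trends by length and GC content removed together, 31 fell and 7 rose of the 84 genes with a GC value that were tested, with a median of -0.12. Of all 10844 genes in that fit 28.5% fell and 28.9% rose. Of the 48 falls 17 no longer passed there, among them Ndufa12, Ndufb7, Ndufb9, Cox7a2 and Atp5g2, which had passed with length alone. The 3 rises this fit added to those with length alone were Cox4i1, Cox6c and Ndufa6.

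**Figure D3:**
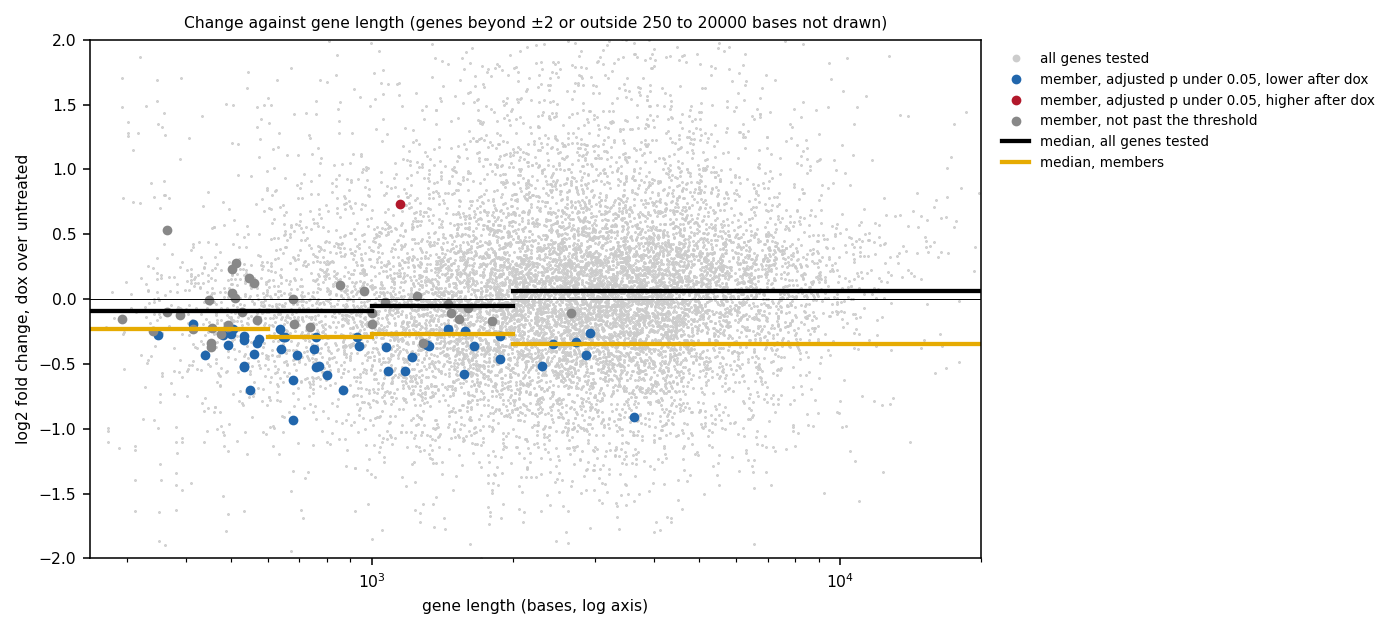
Log2 fold change after dox over untreated against deposited gene length in bases on a log axis, with the respiratory chain and ATP synthase genes over all genes tested. The respiratory medians were -0.23, -0.29, -0.27 and -0.35 from the shortest to the longest of 4 length classes, against -0.09, -0.09, -0.05 and 0.06 for all genes.

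Promoters were searched because many respiratory genes are known to carry sites for the factors NRF1, YY1 and GABP of the ETS family. RefSeq windows of 300 bases, from 250 before to 50 after the start on GRCm38.p6, were at hand for 77 of the 95 genes. The 3 shown belong to Sdha of complex II and Atp5g3 of ATP synthase, which fell and hold matches, and to Cox7a2l, the gene that rose. Each is written 5' to 3' on the minus strand, with matches to the NRF1 letters on either strand in capitals. These letters are GCGC, any base, then TGCGC, and their reverse complement is GCGCA, any base, then GCGC.
Sdha promoter, chr13:74350191-74350490: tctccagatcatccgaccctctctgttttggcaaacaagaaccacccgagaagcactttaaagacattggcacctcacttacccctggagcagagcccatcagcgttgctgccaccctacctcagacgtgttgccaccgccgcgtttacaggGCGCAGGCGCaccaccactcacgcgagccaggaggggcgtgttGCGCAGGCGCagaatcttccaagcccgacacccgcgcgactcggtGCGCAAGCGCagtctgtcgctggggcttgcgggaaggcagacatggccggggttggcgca
Atp5g3 promoter, chr2:73911277-73911576: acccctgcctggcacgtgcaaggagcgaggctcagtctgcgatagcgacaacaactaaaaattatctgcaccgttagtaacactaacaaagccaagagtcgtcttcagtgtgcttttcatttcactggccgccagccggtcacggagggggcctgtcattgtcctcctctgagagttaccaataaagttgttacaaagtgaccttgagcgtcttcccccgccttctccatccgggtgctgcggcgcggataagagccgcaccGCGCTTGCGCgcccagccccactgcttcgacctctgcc
Cox7a2l promoter, chr17:83514284-83514583: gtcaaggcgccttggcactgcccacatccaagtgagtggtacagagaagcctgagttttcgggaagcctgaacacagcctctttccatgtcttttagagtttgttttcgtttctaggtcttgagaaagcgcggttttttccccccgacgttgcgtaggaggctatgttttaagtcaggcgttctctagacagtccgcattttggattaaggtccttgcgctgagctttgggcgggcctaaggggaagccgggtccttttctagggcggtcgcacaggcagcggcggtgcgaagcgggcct
The Sdha window held 3 matches, starting 98, 55 and 10 bases before the start site, and the Atp5g3 window held 1, starting at base 13 after it. The Cox7a2l window held no match to these letters, to CCGGAAG for ETS factors or to AAGATGGC for YY1. Nor did the windows of Ndufv1, Uqcrfs1 and Ndufaf2, which fell.

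Both strands were searched for each motif. Among the 77 genes with a window, 24.7% held the NRF1 letters, 24.7% the ETS letters and 14.3% the YY1 letters, and 54.5% held at least 1 of the 3. Over the 9103 tested genes with a window the shares were 12.4%, 21.7% and 5.68%, and 34.7% held at least 1. Within the respiratory set, at least 1 was found in 53.7% of the 41 genes that fell and in 58.1% of the 31 tested genes that did not fall. The NRF1 letters were in 24.4% of the genes that fell and 29% of those that did not, the ETS letters in 22% and 25.8%, and the YY1 letters in 14.6% and 16.1%, in the same order. A match describes letters in a window and not a bound site.

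Complex I is the largest complex of the chain and its main entry for electrons from NADH. All 38 genes were tested, 18 fell and none rose, with a median log2 fold change of -0.24. Over all genes tested 26.6% fell and 27% rose. With length and GC content adjusted, 11 fell, Ndufb11 and Ndufa6 rose, and the median was -0.071. That share of falls was near the 28.5% of all genes in the same fit. Of the 7 core genes, which encode the redox subunits kept since bacteria, 4 fell, and of the 31 accessory genes 14 fell. Without untreated replicate 1 the falls in complex I numbered 13, as they did without untreated replicate 3. In those fits 24.4% and 22.4% of all genes fell.

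Ndufv1 (Entrez Gene 17995), the core subunit that binds NADH and flavin, had 79.2, 79.8 and 80.8 CPM after dox, against 117, 123 and 118 CPM in untreated mice. The dox libraries lay close together and far under the untreated ones, with a log2 fold change of -0.58 (SE 0.06, adjusted p = 7.4e-05). Ndufs7 (75406), the core subunit with the iron-sulfur cluster next to the quinone site, had 42.8, 43.2 and 36.8 CPM after dox, against 61.4, 55.2 and 60.0 CPM in untreated mice, also without overlap. Ndufs7 changed by -0.52 (SE 0.09, adjusted p = 0.000859) on the log2 scale. The other core subunits that fell were Ndufs1, at -0.26 (SE 0.08, adjusted p = 0.0161), and Ndufs3, at -0.36 (SE 0.08, adjusted p = 0.00367), both carried in the arm that reaches into the matrix. Among core genes that did not pass the test, Ndufv2 and Ndufs8 had log2 fold changes of -0.11 (SE 0.08) and 0.06 (SE 0.09). Ndufs8 sits beside Ndufs7 in the electron path, yet had 88.0, 72.0 and 89.2 CPM after dox and 83.7, 75.9 and 79.5 CPM in untreated mice, with overlapping groups.

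Among accessory subunits, Ndufa5 (68202) of the matrix arm had 19.9, 18.9 and 20.9 CPM after dox, against 38.0, 28.7 and 30.7 CPM in untreated mice, and it changed by -0.70 (SE 0.11, adjusted p = 0.000768). Ndufa10 (67273), which resembles a nucleoside kinase, had 76.0, 72.1 and 75.9 CPM after dox, against 98.5, 107 and 100.2 CPM in untreated mice, with a log2 fold change of -0.45 (SE 0.07, adjusted p = 0.000521). Neither gene overlapped between the groups. Ndufab1 (70316), the mitochondrial acyl carrier protein that also serves fatty acid and lipoic acid synthesis, fell, with a log2 fold change of -0.59 (SE 0.11, adjusted p = 0.00161). Ndufb7, on the outer face of the membrane arm, fell less, at -0.32 (SE 0.06, adjusted p = 0.0028). Ndufa3 passed the test at -0.27 (SE 0.10, adjusted p = 0.0452) although its groups overlapped. The remaining accessory falls ran from -0.51 in Ndufb6 to -0.23 in Ndufb10. Ndufa13, also known as Grim19, and Ndufs5 were at 0.03 (SE 0.10) and 0.01 (SE 0.16), and Ndufa2, among the most abundant of the complex per length, at -0.10 (SE 0.09), none of them past the test.

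Complex II, succinate dehydrogenase, joins the tricarboxylic acid (TCA) cycle to the chain and is the one complex with no subunit encoded in mitochondrial DNA. Of its 4 genes 3 fell, beside 26.6% of all genes tested. Sdha (66945), the flavin subunit that oxidises succinate, had 254, 246 and 267 CPM after dox, against 321, 353 and 362 CPM in untreated mice. Its dox libraries all lay under its untreated ones, and the log2 change was -0.43 (SE 0.07, adjusted p = 0.000907). Sdhc (66052), one of the membrane anchors, had 70.9, 73.3 and 78.5 CPM after dox, against 114, 105 and 108 CPM in untreated mice, likewise with no overlap and with a log2 fold change of -0.55 (SE 0.07, adjusted p = 0.000209). Sdhb, the iron-sulfur subunit, had 125, 109 and 130.2 CPM after dox, against 162, 157 and 151 CPM in untreated mice, and a log2 fold change of -0.37 (SE 0.08, adjusted p = 0.00371). Sdhd, the other anchor, was counted at only 2.24, 1.60 and 2.50 CPM after dox and 2.52, 2.42 and 3.13 CPM in untreated mice. Its groups overlapped, and at this depth its log2 fold change of -0.34 (SE 0.25, adjusted p = 0.277) did not pass.

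In complex III, 5 of the 7 tested genes fell and none rose, beside 26.6% of all genes tested that fell and 27% that rose. Uqcrfs1 (66694), the Rieske iron-sulfur protein that passes electrons toward cytochrome c1, had 103, 103 and 109 CPM after dox, against 134, 136 and 133 CPM in untreated mice. The spread within each group was small beside the distance between them, and the log2 change was -0.36 (SE 0.06, adjusted p = 0.0011). Uqcrc1 and Uqcrc2, the core proteins on the matrix side, fell, at -0.36 (SE 0.06, adjusted p = 0.0013) and -0.29 (SE 0.08, adjusted p = 0.0181). The small subunits Uqcr10 and Uqcrq fell, at -0.43 (SE 0.10, adjusted p = 0.00644) and -0.27 (SE 0.09, adjusted p = 0.0363). Uqcrb, which lies near the quinone sites, had 26.1, 22.4 and 27.1 CPM after dox and 24.0, 21.1 and 19.3 CPM in untreated mice, and Uqcrh, the hinge protein at cytochrome c1, had 112, 92.9 and 114 CPM after dox and 101, 93.9 and 90.7 CPM in untreated mice. Both genes overlapped between the groups. Neither passed the test, at 0.23 (SE 0.11, adjusted p = 0.111) and 0.16 (SE 0.09, adjusted p = 0.171). Without dox replicate 2 both passed as rises. The count of falls was 3 without dox replicate 1 and 3 without untreated replicate 1, where 23.5% and 24.4% of all genes fell. Uqcr11 was listed at 0 in all 6 libraries.

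Complex IV, cytochrome c oxidase, carries nuclear subunits that often come as alternative isoforms for different tissues. Of 12 tested genes 6 fell, 1 rose and 5 did not pass, beside 26.6% of all genes tested that fell and 27% that rose. Cox6a1 (12861), the isoform of subunit 6a found in most tissues, had 103, 90.2 and 99.0 CPM after dox, against 149, 129 and 142 CPM in untreated mice, with no overlap and a log2 fold change of -0.52 (SE 0.08, adjusted p = 0.000557). Cox7a2 (12866), the isoform of subunit 7a found in most tissues, had 75.6, 57.7 and 78.3 CPM after dox, against 101, 84.6 and 90.9 CPM in untreated mice, and fell, at -0.38 (SE 0.12, adjusted p = 0.0223). The other falls were in Cox5a at -0.43 (SE 0.07, adjusted p = 0.000763), Cox5b at -0.34 (SE 0.10, adjusted p = 0.0189), Cox6b1 at -0.23 (SE 0.07, adjusted p = 0.0226) and Ndufa4 at -0.35 (SE 0.10, adjusted p = 0.0165). Ndufa4 carries a complex I name but is known as a subunit of complex IV. The count of falls was 2 without untreated replicate 1 and 3 without untreated replicate 3. In those fits 24.4% and 22.4% of all genes fell, in the same order, so neither count stood clear of the background.

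Cox4i1 (12857) joins complex IV early, together with Cox5a. It had 192, 184 and 194 CPM after dox and 193, 192 and 186 CPM in untreated mice, with overlapping groups, a fold change of 1.00, an SE of 0.06 on the log2 scale and an adjusted p of 0.994. With length and GC content adjusted its log2 fold change was 0.16. Cox6c, Cox7b and Cox7c did not pass either, at 0.04 (SE 0.13), -0.19 (SE 0.12) and -0.00 (SE 0.26), the last of them at only 2.68 ± 0.719 CPM after dox and 2.69 ± 0.337 CPM in untreated mice (SD, n = 3 each).

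Cox7a2l (20463) is related to Cox7a2 and is known, in general, for linking complexes III and IV into supercomplexes, which were not measured here. It was the 1 gene of the 95 that rose. It had 141, 131 and 135 CPM after dox, against 86.9, 79.2 and 78.5 CPM in untreated mice. Every dox library lay far above every untreated one, the fold change was 1.67 and the log2 fold change 0.74 (SE 0.07, adjusted p = 4.09e-05). The rise kept its call in each alternative fit run on it, apart from a required minimum fold of 1.5. Per length, Cox7a2l stood at 1.23, 1.49 and 1.13 times Cox7a2 in dox replicates, against 0.565, 0.615 and 0.567 times in untreated replicates. The pair therefore changed order, with Cox7a2l the more abundant after dox and Cox7a2 in untreated mice, and the log2 ratio moved by 1.13. The exact two-sided permutation p was 0.1, the smallest that 3 against 3 libraries allow. As Cox7a2l was higher and Cox7a2 lower in every dox library, the ratio had to separate the groups, and this p adds no support. The ratio was not among the results planned beforehand. With length and GC content adjusted, the fall of Cox7a2 did not pass, at -0.21 (adjusted p = 0.0625). A near-identical copy, Gm6969, shares 98.0% of 342 bases with Cox7a2l, and reads of the pair cannot be told apart with certainty.

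The isoforms known mainly from other tissues were rare. Cox7a1, the isoform of heart and skeletal muscle, was tested and did not pass at 0.53 (SE 0.32, adjusted p = 0.193). Cox6a2, another muscle isoform, had 5, 2 and 2 counts after dox and 0, 0 and 0 counts in untreated mice, below the filter. Cox4i2 of lung had 2, 1 and 1 counts after dox and 0, 0 and 2 in untreated mice. Ndufa4l2, a relative of Ndufa4, had 0, 0 and 0 counts after dox and 0, 1 and 0 in untreated mice. Cox8b, a muscle isoform, had 0, 0 and 0 counts after dox and 0, 0 and 1 in untreated mice. The testis isoforms Cox6b2, Cox7b2 and Cox8c were at 0 in all 6 libraries. For a gene at 0, 3 counts are the limit that a single library allows, or 0.192 to 0.211 CPM, for counting error only. Cox8a, the isoform of most tissues, was also listed at 0 in each library, as was Uqcr11. Both are subunits that most cells use, so those zeros are given as listed and not as a measured absence.

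**Figure D4:**
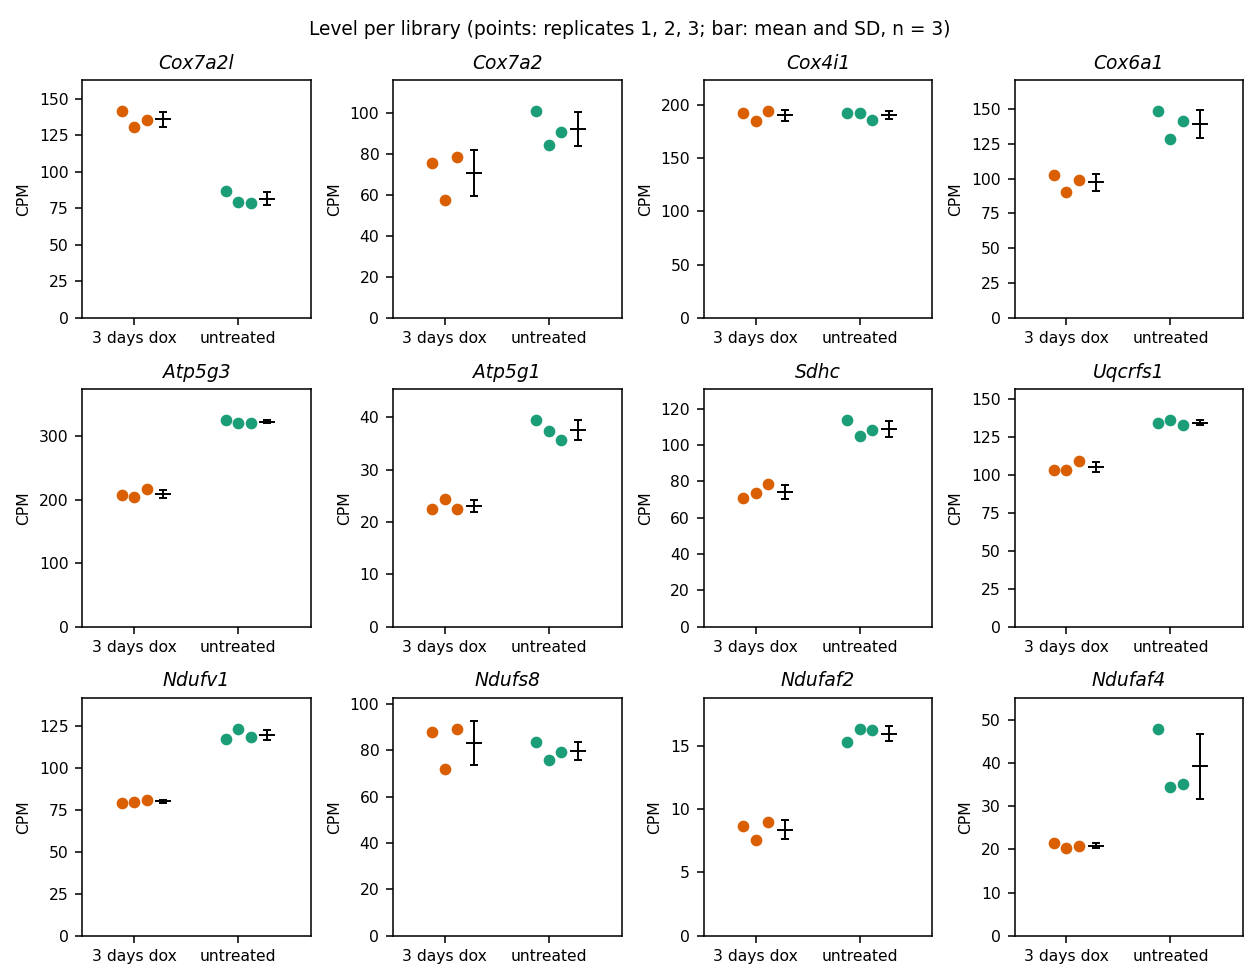
CPM in each library for 12 genes of the respiratory chain and ATP synthase, dox libraries left of untreated libraries, with a bar at each group's mean and SD (n = 3) and axes from 0. Cox7a2l is higher in each dox library, Cox4i1 and Ndufs8 overlap between groups, and the other 9 genes are lower in each dox library.

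ATP synthase couples proton flow through a rotating ring of c subunits to the catalytic F1 head. Of its 17 genes 11 fell and none rose, with a median log2 fold change of -0.29, beside 26.6% of all genes tested that fell. The falls covered 4 of 5 genes of the F1 head, 3 of 3 genes of the c ring and 4 of 4 genes of the peripheral stalk. None was called among 5 genes for other membrane subunits. The count of falls was 7 without dox replicate 1, without dox replicate 2 or without untreated replicate 1, and 6 with length adjusted. In those 4 fits, in the same order, 23.5%, 25.65%, 24.4% and 26.6% of all genes fell.

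Atp5b (11947), the catalytic beta subunit, had 1011, 939 and 1173 CPM after dox, against 1417, 1438 and 1457 CPM in untreated mice, with no overlap. The log2 change here was -0.47 (SE 0.09, adjusted p = 0.00245). Atp5a1, the alpha subunit that alternates with beta around the head, fell, at -0.35 (SE 0.08, adjusted p = 0.00495). Atp5c1, the gamma shaft that turns inside the head, was at -0.17 (SE 0.08, adjusted p = 0.124), and Atp5d and Atp5e, which join the shaft to the ring, were at -0.29 (SE 0.07, adjusted p = 0.00558) and -0.19 (SE 0.07, adjusted p = 0.0415). Atp5o (28080), which ties the stalk to the head, had 47.1, 45.9 and 48.0 CPM after dox, against 64.9, 68.6 and 68.2 CPM in untreated mice, and fell, at -0.52 (SE 0.07, adjusted p = 0.000234). Its groups did not overlap. The other stalk genes Atp5pb, Atp5h and Atp5j fell, at -0.23 (SE 0.09, adjusted p = 0.0429), -0.31 (SE 0.10, adjusted p = 0.026) and -0.29 (SE 0.09, adjusted p = 0.0227).

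The genes Atp5g1, Atp5g2 and Atp5g3 encode the same mature c subunit behind different import signals, and all 3 fell. Atp5g3 (228033) had 207, 204 and 217 CPM after dox, against 325, 321 and 321 CPM in untreated mice, with a log2 fold change of -0.63 (SE 0.06, adjusted p = 4.61e-05). Atp5g1 (11951) had 22.4, 24.4 and 22.5 CPM after dox, against 39.4, 37.4 and 35.6 CPM in untreated mice, and a log2 fold change of -0.70 (SE 0.08, adjusted p = 0.000107). Atp5g2 fell less, at -0.29 (SE 0.07, adjusted p = 0.00771). With length and GC content adjusted, Atp5g2 was at -0.14 (adjusted p = 0.115) and did not pass. Neither Atp5g1 nor Atp5g3 overlapped between the groups. Per length, Atp5g3 made up 63.1%, 63.6% and 63.2% of c subunit transcripts after dox, against 66.8%, 67.0% and 68.7% in untreated mice, and Atp5g2 made up 31.5%, 30.4% and 31.7% after dox, against 26.9%, 26.9% and 25.4% in untreated mice. Atp5g1 made up the small remainder, with 5.34%, 5.95% and 5.13% after dox, against 6.34%, 6.11% and 5.96% in untreated mice. The shares of Atp5g2 were higher, and those of Atp5g3 and Atp5g1 lower, in each dox library. These shares were looked at after the values had been seen. Atp5g2 has a copy, Gm10175, that is identical over 645 bases, and Atp5g1 has a copy, Gm10039, with 99.8% identity over 411 bases. How reads shared with these copies were counted is not known here, so the levels and shares are uncertain.

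Among the 5 other membrane subunits no gene passed. Atp5l, subunit g, was at 0.28 (SE 0.26, adjusted p = 0.387), and Atp5mpl at -0.10 (SE 0.10, adjusted p = 0.429). Atp5j2, subunit f, and Atp5k, subunit e, which helps synthase dimers to form, were at -0.27 (SE 0.11, adjusted p = 0.0778) and -0.15 (SE 0.09, adjusted p = 0.207). The fifth gene, Atp5md, was at -0.24 (SE 0.20, adjusted p = 0.334). The median SE of these 5 genes was 0.11, against 0.07 in the c ring, and whether their changes differed from those of the head and stalk was not tested.

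The Ndufaf genes encode factors that join, modify or stabilise parts of complex I and leave before it is finished. Of the 8, 5 fell and none rose, with a median log2 fold change of -0.42, beside 26.6% of all genes tested that fell. Ndufaf2 (75597), a relative of the subunit Ndufa12 whose place it holds late in assembly, had 8.62, 7.52 and 8.96 CPM after dox, against 15.3, 16.3 and 16.2 CPM in untreated mice. Its dox libraries all lay far under its untreated ones, and the log2 change was -0.93 (SE 0.12, adjusted p = 0.000183). Ndufa12 itself was at -0.42 (SE 0.12, adjusted p = 0.0166). Ndufaf4 (68493), which acts early beside Ndufaf3, had 21.5, 20.4 and 20.9 CPM after dox, against 47.9, 34.6 and 35.3 CPM in untreated mice, and fell, at -0.91 (SE 0.13, adjusted p = 0.000344). Untreated replicate 1 was the highest of its 6 libraries, and the groups did not overlap.

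Ndufaf7, a mitochondrial methyltransferase, fell, at -0.51 (SE 0.08, adjusted p = 0.00069). Ndufaf6 fell, at -0.56 (SE 0.15, adjusted p = 0.0104), and Ndufaf5, which hydroxylates Ndufs7, at -0.33 (SE 0.12, adjusted p = 0.048). Ndufaf8, a partner of Ndufaf5, and Ndufaf1 and Ndufaf3 did not pass the test, at -0.20 (SE 0.13), -0.04 (SE 0.10) and -0.02 (SE 0.12). Ndufaf3 and Ndufaf4 work together, yet only Ndufaf4 passed the test, and the difference between them was not tested.

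Set against each other per length, the genes spanned a wide range. Over all 6 libraries, Atp5b was highest at 659.5 RPKM, followed within ATP synthase by Atp5g3 at 391 RPKM. In complex IV, Cox4i1 stood at 280.2 RPKM after dox and 280.3 RPKM in untreated mice, the highest of its complex over all 6 libraries, while Ndufa4 stood at 239.6 RPKM after dox and 306 RPKM in untreated mice. Complex III lay between 46.4 and 185 RPKM, and complex I between 3.03 and 135 RPKM with a median of 67.4. Sdhd, at 1.87 RPKM, was listed far below Sdha, Sdhb and Sdhc. No near-identical copy of Sdhd was found in the reference, whereas the low Atp5l and Cox7c have 4 and 2 copies, and how the counting treated such reads is not known here. The Ndufaf genes were lower than most subunits, at 4.51 to 26.6 RPKM with a median of 11.5. RPKM depends on the deposited gene length and on how reads shared with copies were counted.

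**Figure D5:**
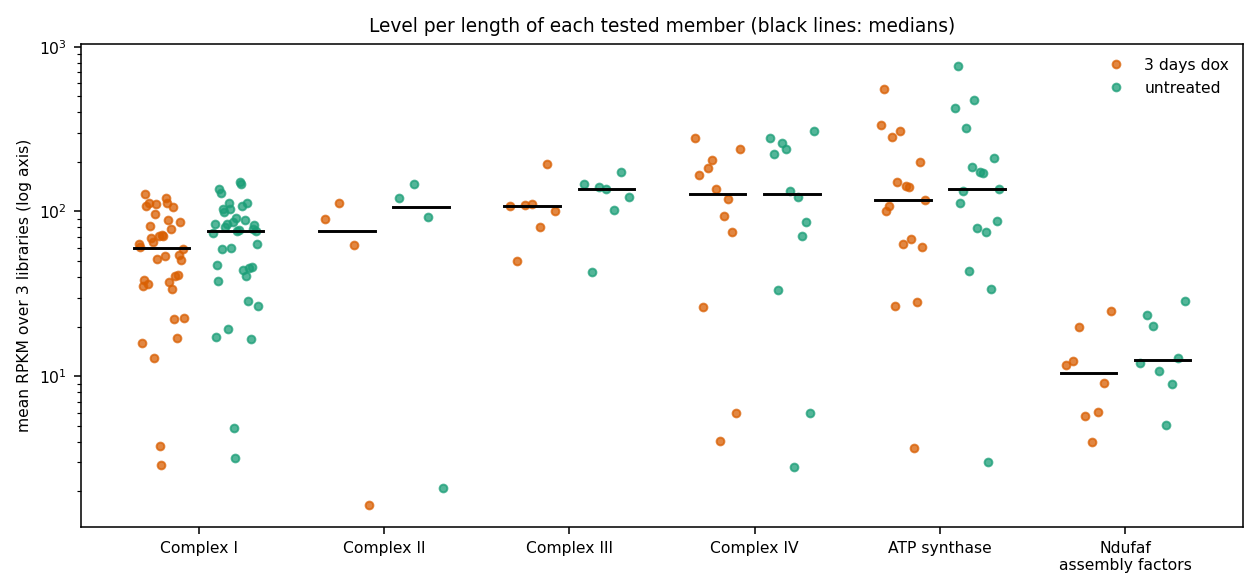
Mean RPKM over the 3 libraries of a group, on a log axis, for the tested genes of each complex and for the Ndufaf genes, 1 point per gene, dox left of untreated, with black lines at the medians. Averaged over all 6 libraries, complex III lies between 46.4 and 185 RPKM, the Ndufaf genes between 4.51 and 26.6 RPKM, and Atp5b is highest at 659.5 RPKM.

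Near-identical copies and overlapping genes are common among these genes and limit single values. In the reference annotation 23 genes had another gene with at least 97% identity over 100 bases or more, 33 overlapped an exon of another gene, 30 of them on the opposite strand, and 48 had neither. Ndufb4b and Ndufb4c were not matched there by identifier and are in none of these counts. Of the 48, 42 were tested, 26 fell and none rose. Of all genes tested, with no such split, 26.6% fell and 27% rose. Cox7a2l, the 1 gene called as a rise, is not among the 48 because of its copy Gm6969. This split was made after the data had been seen. Ndufb4 and Ndufb4c are identical over 390 bases, so their counts are uncertain. The annotation used for copies lists Ndufb4c as a processed pseudogene, although the gene names used for the rule list it as protein-coding. Mean levels were 1.71 CPM for Ndufb4 and 32.5 CPM for Ndufb4c after dox, against 2.21 and 41.2 CPM in untreated mice. Ndufaf2 overlaps B230220B15Rik on the opposite strand, and without a stated strand setting the reads of the pair cannot be told apart.

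Genes that regulate mitochondrial transcription and biogenesis fell in 9 of 21 tested cases and rose in none, with a median log2 fold change of -0.16. Of all genes tested 26.6% fell and 27% rose. Pprc1, a coactivator related to the PGC-1 family, had 59.0, 75.2 and 59.9 CPM after dox, against 128, 126 and 138 CPM in untreated mice, and fell, at -1.01 (SE 0.10, adjusted p = 4.93e-05) with no overlap. Twnk, the mitochondrial DNA helicase, fell, at -0.78 (SE 0.09, adjusted p = 8.43e-05). Among those chosen after their values had been seen, Ppargc1b, another coactivator, was at -1.23 (SE 0.19, adjusted p = 0.000556), Tfb1m, which methylates mitochondrial ribosomal RNA, at -0.76 (SE 0.10, adjusted p = 0.000205), Lrpprc, which stabilises mitochondrial messenger RNA, at -0.52 (SE 0.07, adjusted p = 0.00031), and Tfam, which packages mitochondrial DNA, at -0.45 (SE 0.07, adjusted p = 0.000439). Nrf1 fell, at -0.37 (SE 0.07, adjusted p = 0.00123), and Gabpa, the DNA-binding part of GABP, was at -0.20 (SE 0.07, adjusted p = 0.0355). Yy1, Esrra and Gabpb1 did not pass, and Ppargc1a was under the filter.

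Factors outside the name rule that help to build the complexes were counted beside the 26.6% of all genes tested that fell. Of 11 further complex I assembly factors 3 fell, a share of 27.3% near that background, among them Acad9 at -0.45 (SE 0.08, adjusted p = 0.00127) and Ecsit at -0.32 (SE 0.07, adjusted p = 0.00562), and the median was -0.15. Of Cyc1 and the complex III assembly factors 3 of 7 fell, with Cyc1, which receives electrons from Uqcrfs1, at -0.45 (SE 0.08, adjusted p = 0.00172) and Uqcc2 at -0.59 (SE 0.12, adjusted p = 0.00223). Of cytochrome c and the complex IV assembly factors 7 of 25 fell, a share also near the background, including Cox10 of heme A synthesis at -0.57 (SE 0.08, adjusted p = 0.000323) and Cox18 at -0.65 (SE 0.10, adjusted p = 0.000471), and 1 rose, Surf1 at 0.43 (SE 0.07, adjusted p = 0.00114). Sdhaf2, which attaches flavin to Sdha, was the 1 called gene among 4 complex II assembly factors. It had 134, 128 and 131 CPM after dox, against 94.9, 81.6 and 81.0 CPM in untreated mice, and rose by 0.61 (SE 0.08, adjusted p = 0.000199) without overlap while Sdha fell. Sdhaf1, which helps to load the iron-sulfur clusters of Sdhb, was at -0.19 (SE 0.11, adjusted p = 0.155).

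ATP synthase assembly factors and the carriers and channels that exchange its nucleotides fell in 6 of 10 cases, with a median of -0.28. Of all genes tested 26.6% fell and 27% rose. Slc25a5, which swaps ADP for ATP across the inner membrane, fell, at -0.61 (SE 0.08, adjusted p = 0.000199), and the outer membrane channels Vdac1 and Vdac2 were at -0.55 (SE 0.06, adjusted p = 0.000117) and -0.50 (SE 0.06, adjusted p = 0.000158). TCA cycle enzymes, which feed NADH and succinate to the chain, fell in 10 of 13 cases and rose in none. Their median was -0.24, with Idh3a at -0.63 (SE 0.08, adjusted p = 0.000204) and Mdh2 at -0.49 (SE 0.06, adjusted p = 0.000231).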

How the data were processed

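The 6 RNA sequencing libraries were grouped by their labelled treatment, with 3 after dox and 3 untreated. The authors deposited raw read counts for each gene, with Entrez Gene identifiers and gene lengths. The submitters' processing notes name CASAVA 1.8.2, featureCounts and build mm9. The sources used here do not give the aligner, the annotation, the strand setting or the treatment of reads shared between copies.

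Identifiers were matched to symbols for 24176 of 26286 genes. The reference at hand was GRCm38, so it served for names, GC content, copies (blastn), exon overlaps and RefSeq promoter windows, and no coordinates were joined to the counts. A minimum count of 10 in edgeR's filterByExpr kept 99.93% of counts, and TMM factors were 0.991 to 1.009. Calls come from edgeR 4.0.16 (glmQLFit and glmQLFTest, R 4.3.3) without covariates, with Benjamini-Hochberg adjustment over all 12275 genes. An SE is the unsigned log2 fold change over the root of its F value. Scripts were tested on simulated counts.

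The genes and lists were chosen with earlier results of these data known. Genes named with values are, by rule, in each complex the 4 with the smallest p, the 2 highest in RPKM, the 2 with the largest p and any called against the majority, tissue isoforms, members under the filter, Pax5, and the 2 with the smallest p in each related list. Further genes were added once their values were known. Same-numbered dox and untreated libraries deviated together with correlations of 0.305, 0.288 and -0.037. Libraries of unlike number had correlations of -0.336 to 0.025. The main fit did not take the numbers to pair the samples, and a fit with the number as a block is given as an alternative. Whether same-numbered libraries share a batch was not tested. Alternatives were other scalings and filters, the DESeq2 1.42.0 test, limma 3.58.1 voom, minimum folds, length and GC offsets, a replicate block and leaving out each library. Values of 1 gene are not reported here, though it is in the counts and sums.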

Additional observations from a re-analysis of the deposited data

How the results depend on the processing

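Over all 86 tested genes the count of falls lay between 43 and 51 under the other scalings and filters, the DESeq2 test, limma voom and the replicate block, and Cox7a2l rose in each. Without a low-count filter 2 rose in all, and 2 in complex IV, with Cox6a2 added. The replicate number as a block gave 51 falls and 1 rise, and the numbers were not taken to pair the samples. Leaving out 1 library at a time gave 32 to 51 falls and 1 to 3 rises, with medians of -0.34 to -0.21. In those fits 22.37% to 25.65% of all genes fell and 21.58% to 25.45% rose. By complex the falls then numbered 13 to 19 in complex I, 3 to 5 in complex III, 2 to 7 in complex IV, 7 to 12 in ATP synthase and 4 to 5 among Ndufaf genes, and 3 each time in complex II.

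A length offset gave 4 rises, medians of -0.12 in complex I and -0.10 in complex IV, and 6 falls in ATP synthase. Together with the replicate block it gave 5 rises, medians of -0.12 in complex I and -0.11 in complex IV, and 6 falls in ATP synthase. A length and GC offset gave 31 falls, 7 rises and a median of -0.12, with 11 falls and -0.071 in complex I, 3 falls, 3 rises and -0.0448 in complex IV, and 6 falls and -0.11 in ATP synthase. In that fit 28.5% of all genes fell and 28.9% rose. Cox4i1 changed sign there, to 0.16 (adjusted p = 0.0435 by the quasi-likelihood test of edgeR with Benjamini-Hochberg adjustment). The cause was not tested.

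Stricter by construction, a minimum fold of 1.2 left 18 falls, with 6 in complex I, 0 in complex III, 2 in complex IV and 4 in ATP synthase. There 16.9% of all genes fell and 17.1% rose. The falls in complexes I, III and IV were near or under that share. A minimum fold of 1.5 left 2 falls, both among Ndufaf genes, and 0 falls in each of complexes I, II, III and IV and ATP synthase, with 0 rises in all and 0 in complex IV. By that rule 5.46% of all genes fell and 7.56% rose. Genes with no copy and no exon overlap, a split added after the data had been seen, gave 26 falls and 0 rises among 42 tested. Over all genes tested, without such a split, 26.6% fell. The split by copies and overlaps leaves out Cox7a2l. The low counts of Sdhd, Cox7c and Atp5l leave SEs of 0.25 to 0.26, and whether those counts are low through annotation or shared reads was not tested.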

Other observations

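Coenzyme Q carries electrons from complexes I and II to complex III. Of 13 genes for its synthesis and handling 6 fell and 2 rose after dox, with a median log2 fold change of -0.25. Of all genes tested 26.6% fell and 27% rose. The rises were in Coq10a, at 1.05 (SE 0.14, adjusted p = 0.00027), and Coq8a, a kinase-like protein of the synthesis complex, at 0.90 (SE 0.14, adjusted p = 0.000555), by the quasi-likelihood test of edgeR with Benjamini-Hochberg adjustment. Of 8 mitochondrial enzymes that defend against oxidants 1 fell, a share of 12.5% that is under that of all genes. It was Txn2, the mitochondrial thioredoxin, at -0.22 (SE 0.06, adjusted p = 0.0181). Prdx5, a peroxiredoxin, did not pass at 0.23 (SE 0.09, adjusted p = 0.0578).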
